A study of Homo sapiens with 12 samples.

Results

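Homologous recombination and Fanconi anaemia genes were followed in RNA that co-precipitated with eIF4E in MDA-MB-231, a line of human breast cancer cells that lack hormone receptors and HER2 amplification. Members were taken by name from a list of 34 genes, and a gene was followed where the array's annotation gave it a probe set of its own. Of the 34 genes, 30 had one, over 47 probe sets, and 27 were bright enough to be tested, out of 11963 genes with a probe set and 7178 tested. BRCA2, RBBP8, FANCA and FANCD2 were not analysed here. BRIP1, RAD52 and XRCC3 were measured but lay under the signal filter. A probe set shared by FSBP and RAD54B was left out.

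The study compared 4 groups of 3 arrays: eIF4E precipitates of cells that had received 2 Gy of X-rays 6 h earlier, eIF4E precipitates of untreated cells, IgG precipitates of irradiated cells and IgG precipitates of untreated cells. IgG is a control antibody and gives the background of the precipitation. All groups were the same unmodified line, and the design text calls the replicates biological. No array of unprecipitated RNA was used here, so a transcript's level in the cell and the share of it bound to eIF4E cannot be told apart. Nor can fewer cells with a transcript and less of it per cell.

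Homologous recombination repairs a broken chromosome by copying the intact sister. MRE11, RAD50 and NBN hold the ends and begin their trimming, BRCA1 with BARD1 favours that trimming, PALB2 and BRCA2 prepare the single-stranded DNA to invade the sister, and helicases, topoisomerases and nucleases resolve the joined molecules. The Fanconi anaemia pathway opens crosslinks between DNA strands: its core complex attaches ubiquitin to FANCI and FANCD2, which call nucleases such as FAN1, and recombination completes the repair. eIF4E binds the cap at the 5′ end of messenger RNAs and brings them to the ribosome, and transcripts that begin with a run of pyrimidines, as those of ribosomal proteins do, are known for translation that depends on growth signals.

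Because eIF4E acts at the cap, the first 20 bases of annotated transcripts are shown for the members at both ends of the comparison with IgG and for those that begin with a pyrimidine run. Such a run was defined as a C at the first base followed by further C or T, at least 5 in all, read on the transcript's own strand, and it is in capitals. The sequences come from RefSeq (GRCh38.p14), as DNA letters, 5′ to 3′.
BARD1: agacgcgggaagagcttggc
RAD50: acgtgatccgcagggcggcc
MRE11: ggacgccgttctctcccgcg
BRCA1, start 1: CTTTCTgtcccgcccttcct
BRCA1, start 2: gctgagacttcctggacggg
SEM1, start 1: agtgacggtggcgtttcctt
MUS81: gacaggaaggagccggtcca
FANCG: CCTTTCTCgaggctgtggcc
FANCE: CCTTCCCTTTCCgacagcgc
RAD51D, start 1: CTCCTCCTCTCTCCTTTCTC
These lie at chr2:214809664-214809683 for BARD1 (minus strand), chr5:132556977-132556996 for RAD50 (plus strand), chr11:94493825-94493844 for MRE11 (minus strand), chr17:43170308-43170327 and chr17:43125345-43125364 for BRCA1 (minus strand), chr7:96709827-96709846 for SEM1 (minus strand), chr11:65860433-65860452 for MUS81 (plus strand), chr9:35079923-35079942 for FANCG (minus strand), chr6:35452338-35452357 for FANCE (plus strand) and chr17:35119739-35119758 for RAD51D (minus strand). Each is the 5′ end of the first exon of an annotated transcript. Of 23 tested members with a sequence, 4 (17.4%) began with such a run at any annotated start, against 7.9% of the 6055 tested genes and 5.1% of the 27305 genes with a sequence. FANCI, NBN, RAD54B and WRN are not among the 23. The runs were 6 bases long in BRCA1 at its start 1, 8 in FANCG, 12 in FANCE, and all 20 bases shown in RAD51D at its start 1.

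Array controls separated the antibodies. Alu signal, from a repeat found mainly outside messenger RNA, was 13482 to 18476 on the 6 eIF4E arrays and 36876 to 53246 on the 6 IgG arrays. For actin, the probe set near the 3′ end was 1.33 to 1.53 times as bright as the one near the 5′ end with eIF4E and 2.96 to 5.38 times with IgG, a ratio that for GAPDH was 1.13 to 1.31 with eIF4E and 2.03 to 2.78 with IgG. These measures split the arrays exactly as the antibody does, so any difference between antibodies moves with them and they cannot be told apart. The hybridization control bioB, over bioC, lay at 0.335 to 0.517 on the replicate 1 arrays and at 0.0265 to 0.0572 on all others. All 11 markers of the line, such as VIM, CD44 and AXL, lay above the 90th percentile of 22 genes taken as not expressed, with a summed signal of 62022 to 72147 on eIF4E arrays and 91533 to 121526 on IgG arrays. Of 10 luminal markers, which the line should lack, 3 (GATA3, KRT19 and EPCAM) lay above that level, and CDH1, ESR1, PGR and FOXA1 did not. Of those 22 genes, 2 were bright on every array, MBP at 1129 to 3618 and SERPINA1 at 153 to 507, so the percentile is a rough level of background. The arrays were scaled to a common trimmed mean by the authors, so every signal is relative to the other genes of its array.

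The irradiation comparison within eIF4E precipitates asks which of these messengers changed in association with the cap-binding protein 6 h after the dose. None of the 27 members passed. A gene is called where limma's adjusted p, over all 7178 genes tested, is under 0.05, and 0 of 27 members were, where 0% of all genes were called. At an unadjusted p under 0.05 there were 0 of 27 members and 82 of all genes (1.14%). The median difference on the log2(signal + 16) scale, on which all differences here are given, was 0.09 over the members and 0.0011 over all genes. Of the members 17 (63%) stood above 0 and 10 below, against 50.3% of all genes above 0. As members of 1 array are not independent, this share is a description. All 27 of the 95% intervals held 0. They reached from -0.99 (FANCF) to 0.84 (FANCC), so each lay within 1 log2 unit on either side. For a dim gene such as FANCF, 1 unit on this scale is more than a 2-fold change of signal. The model pools the spread of all 4 groups. Arrays of 1 group correlated at 0.978 to 0.991 with eIF4E and at 0.956 to 0.976 with IgG. SEs and intervals may thus be too wide for eIF4E precipitates. A fit of the eIF4E arrays alone also called 0 members.

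The 5 members with the smallest p in that comparison were FANCC, a core complex subunit, the motor proteins RAD54L and RAD54B, BARD1 and the helicase BLM, mutated in Bloom syndrome. FANCC signal was 275, 211 and 366 on the irradiated eIF4E arrays and 206, 213 and 202 on the untreated ones. Irradiated replicate 2 lay among the untreated arrays, and the other irradiated arrays lay above all 3 of them. FANCC stood at 0.40 ± 0.21 (log2, SE, n = 3 a side, unadjusted p = 0.0745 and adjusted p = 1 by limma), and at 0.21 without irradiated replicate 3.

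RAD54L, which helps the trimmed strand to invade the sister, had 422, 508 and 449.8 on the irradiated and 275, 391 and 449.9 on the untreated eIF4E arrays. Untreated replicate 1 was the lowest, and untreated replicate 3 lay among the irradiated arrays. The difference was 0.32 ± 0.18 (SE), and 0.12 without untreated replicate 1. RAD54B, its relative, had 493, 320.4 and 421 on the irradiated and 365, 354 and 288 on the untreated eIF4E arrays, and irradiated replicate 2 lay among the untreated arrays. That came to 0.27 ± 0.20 (SE), and to 0.13 without irradiated replicate 1, 0.43 without irradiated replicate 2 and 0.17 without untreated replicate 3.

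BARD1, the partner that stabilises BRCA1, had 364, 304 and 399 on the irradiated and 292, 258 and 327 on the untreated eIF4E arrays. Only irradiated replicate 2 was below an untreated array, and the difference was 0.27 ± 0.15 (SE). BLM had 277, 269 and 224 on the irradiated and 215, 228 and 177 on the untreated eIF4E arrays. The groups overlapped by irradiated replicate 3 and untreated replicate 2, which differed by little, and the difference was 0.29 ± 0.20 (SE), or 0.19 without untreated replicate 3. Between arrays of the same replicate number, the irradiated one was the higher in 3 of 3 pairs for BARD1 and BLM, and in 2 of 3 for FANCC, RAD54L and RAD54B. RAD54L, RAD54B, BARD1 and BLM also had an adjusted p of 1. These SEs and p take no account of pairing. With the replicate number as a block in the fit, 0 members were called. The lowest limma adjusted p of these genes and FANCC in any alternative fit was 0.197 (FANCC).

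By the 1 probe set that stood for each gene, arrays of the groups were apart in 2 of 27 members (7.41%). That compares with 9.4% of all genes (4.85% higher, 4.56% lower). RAD51AP1, which promotes strand invasion, had 1847, 1749 and 1718 on the irradiated and 1614, 1618 and 1539 on the untreated eIF4E arrays, all irradiated arrays being higher, at 0.15 ± 0.17 (SE, adjusted p = 1). That SE draws on its IgG arrays too, whose SDs were 173 irradiated and 359 untreated, against 67.5 and 44.7 with eIF4E. FANCF, an adaptor of the core complex, had 49.3, 49.7 and 63.2 on the irradiated and 68.2, 80.4 and 75.3 on the untreated eIF4E arrays, all irradiated arrays being lower, at -0.37 ± 0.29 (SE, adjusted p = 1). FANCF was dim: on 8 of 12 arrays it lay above the 90th percentile of the genes taken as not expressed, which was 43.0 to 62.6 on eIF4E arrays and 49.4 to 105.7 on IgG arrays. Further probe sets, outside that count, were also apart in eIF4E precipitates. FANCI (243, 220 and 231 irradiated, 154, 212 and 182 untreated) and NBN (473, 411.6 and 411.5, against 391, 372 and 352) were higher after irradiation. RAD50 was lower (56.9, 55.2 and 50.8, against 72.5, 78.1 and 64.7). By the probe sets used throughout, the arrays of these genes overlapped.

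**Figure D1:**
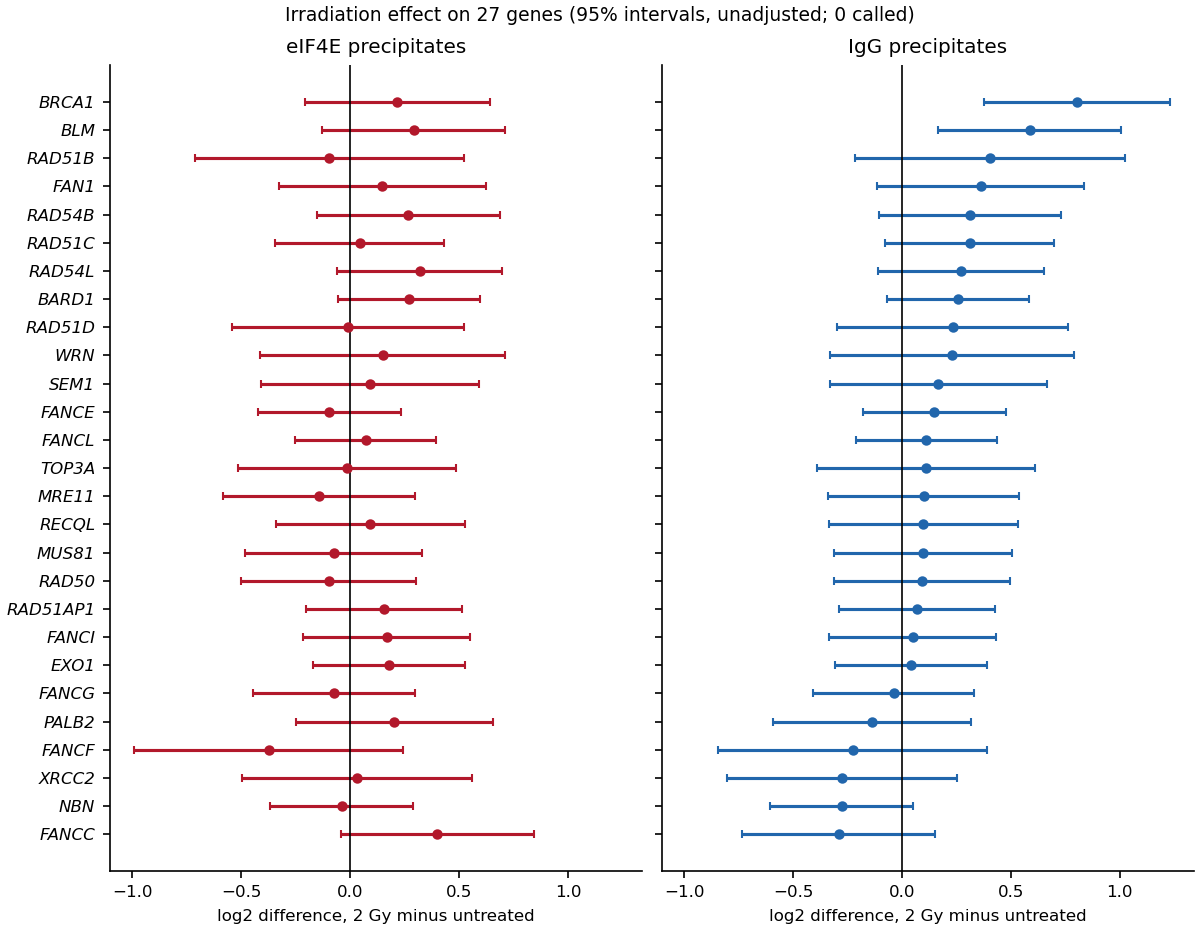
Irradiated minus untreated difference (log2, horizontal axis) of the 27 tested members, in eIF4E precipitates on the left and IgG precipitates on the right, with unadjusted 95% intervals and genes ordered by the IgG value. Every eIF4E interval crosses 0, while those of BRCA1 and BLM lie above 0 in IgG precipitates, where 0 members were called.

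In IgG precipitates the same comparison measures irradiation in the background RNA. Here too 0 of 27 members and 0% of all genes were called by limma, with 2 of 27 members (7.41%) and 475 of all genes (6.62%) at an unadjusted p under 0.05. The 2 were BRCA1 and BLM, and both were higher after irradiation. Of the members 21 (77.8%) stood above 0, against 50.6% of all genes, with a median of 0.11 over the members and 0.0045 over all genes. Members of 1 array are not independent, so this share is a description.

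BRCA1, the ubiquitin ligase that steers breaks to recombination, had 1023, 682 and 601 on the irradiated IgG arrays and 423, 386 and 461 on the untreated IgG arrays. All irradiated arrays lay above all untreated ones, and irradiated replicate 1 was highest by far. BRCA1 stood at 0.80 ± 0.20 (SE, n = 3 a side, unadjusted p = 0.001, adjusted p = 0.613 by limma), with a 95% interval of 0.38 to 1.23. Without irradiated IgG replicate 1 it stood at 0.58.

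BLM had 783, 439.6 and 517 on the irradiated and 391, 343 and 377 on the untreated IgG arrays. The groups did not overlap, and irradiated replicate 1 again was the highest. The difference was 0.59 ± 0.20 (SE, unadjusted p = 0.00929, adjusted p = 0.631), and 0.35 without irradiated IgG replicate 1. That array also had the highest Alu signal (53246) and the highest actin ratio (5.38) of the 12, and the part of these in BRCA1 and BLM was not tested. Among the irradiated IgG arrays it was the highest in 11 of the 27 members and the lowest in 9. Over the group, Alu signal was 36876 to 53246 on the irradiated and 37960 to 47854 on the untreated IgG arrays.

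Next by p came NBN, RAD51C and BARD1. NBN, which recruits the kinase ATM to breaks, had 1457, 1968 and 1899.8 on the irradiated and 1962, 1995 and 2484 on the untreated IgG arrays. Irradiated replicate 1 was lowest and untreated replicate 3 highest, the other 4 lay close together, and the difference was -0.28 ± 0.16 (SE), or -0.14 without that irradiated array and -0.17 without that untreated one. Further NBN probe sets averaged 921 irradiated and 967 untreated, 237 and 281, and, the other way, 434 and 401. RAD51C, a subunit of both complexes that the recombination paralogs form, had 488, 595 and 637 on the irradiated and 355, 435 and 615 on the untreated IgG arrays, which overlapped widely, at 0.31 ± 0.18 (SE), or 0.14 without untreated replicate 1 and 0.52 without untreated replicate 3. By its other probe set RAD51C did not rise, with means of 325 irradiated and 334 untreated. BARD1 had 1162, 1066 and 1293 on the irradiated and 1058, 951 and 925 on the untreated IgG arrays, which did not overlap but nearly touched, at 0.26 ± 0.15 (SE). The adjusted p was 0.734 for each of these 3 genes.

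In all, IgG arrays of the groups were apart in 5 of 27 members (18.5%), against 8.68% of all genes (4.53% higher, 4.15% lower). Besides BRCA1, BLM and BARD1 these were RAD54L, with 457, 518 and 459.7 on the irradiated and 409, 431 and 344 on the untreated IgG arrays (0.27 ± 0.18, SE), and XRCC2, a subunit of one of the paralog complexes. XRCC2 ran the other way, with 104, 106 and 108 on the irradiated and 114, 111 and 178 on the untreated IgG arrays (-0.28 ± 0.25, SE). Neither was called (adjusted p = 0.734 and 0.8). Further probe sets of FANCI and RECQL, outside that count, were also apart, both higher after irradiation. FANCI had 544, 567 and 546 on the irradiated and 448, 532 and 438 on the untreated IgG arrays. RECQL had 414, 316 and 335 on the irradiated and 148, 251 and 209 on the untreated IgG arrays. By the probe sets used throughout, the IgG arrays of both genes overlapped.

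The difference of both irradiation effects, eIF4E minus IgG, asks whether the response in eIF4E precipitates departed from the background. Limma called 0 of 27 members and 0% of all genes, and at an unadjusted p under 0.05 there was 1 member, FANCC, beside 216 of all genes (3.01%). FANCC stood at 0.69 ± 0.30 (SE, unadjusted p = 0.033, adjusted p = 0.999), since its IgG arrays ran the other way, with 286, 294 and 259 after irradiation and 333, 273 and 451 without. Untreated IgG replicate 3 was the highest of the 12 arrays for FANCC. BRCA1 stood at -0.59 ± 0.28 (SE, adjusted p = 0.999), with 303, 263 and 229.5 on the irradiated and 182, 253 and 246 on the untreated eIF4E arrays. These overlapped, and their own difference was 0.22 ± 0.20 (SE). Without irradiated IgG replicate 1, BRCA1 stood at -0.37 for the difference of effects.

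The other 3 members with the smallest p for the difference were RAD51B, PALB2 and FANCE. RAD51B, from the same complex as XRCC2, had 62.6, 83.4 and 71.4 on the irradiated and 75.6, 79.1 and 79.7 on the untreated eIF4E arrays, and 69.3, 90.8 and 42.7 on the irradiated and 61.2, 41.2 and 36.3 on the untreated IgG arrays. Its IgG arrays were scattered and its eIF4E arrays were not, at -0.50 ± 0.41 (SE), or -0.30 without irradiated IgG replicate 2. It was also dim, above the genes taken as not expressed on 5 of 6 eIF4E arrays and 1 of 6 IgG arrays, so its differences from IgG are set against a level mostly not above background.

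PALB2, the bridge from BRCA1 to BRCA2, had 200.1, 264 and 311 on the irradiated and 234, 209 and 214 on the untreated eIF4E arrays, and 216, 346 and 387 on the irradiated and 308, 329.9 and 386 on the untreated IgG arrays. The treatments overlapped with either antibody, and the difference of effects was 0.34 ± 0.30 (SE). It was 0.20 without irradiated eIF4E replicate 3 and 0.10 without irradiated IgG replicate 1. FANCE, which joins the core complex to FANCD2, had 559, 696 and 808 on the irradiated and 738, 699 and 748 on the untreated eIF4E arrays, and 738, 750.1 and 664 on the irradiated and 725, 574 and 643 on the untreated IgG arrays. Here all groups overlapped, at -0.24 ± 0.22 (SE). The value was -0.11 without irradiated eIF4E replicate 1, -0.37 without irradiated eIF4E replicate 3 and -0.16 without untreated IgG replicate 2. Of the 27 intervals for the difference 26 held 0, with a median half-width of 0.59, against 0.42 within 1 antibody.

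Against IgG, 18 of 27 members (66.7%) differed as the mean of both treatments, close to the 70.7% of all genes called by limma. They leaned downward: 3 (11.1%) were higher and 15 (55.6%) lower with eIF4E, where 32.5% of all genes were higher and 38.2% lower. The median was -0.43 over the members and -0.07 over all genes. The 6 arrays of each antibody did not overlap in 14 members (51.9%), against 49.9% of all genes. By direction 1 member was higher and 13 were lower, where 23.1% of all genes were higher and 26.7% lower. The 3 higher genes were SEM1, MUS81 and FANCG, and the lower ones held MRE11, RAD50 and NBN and the helicases BLM, WRN and RECQL.

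**Figure D2:**
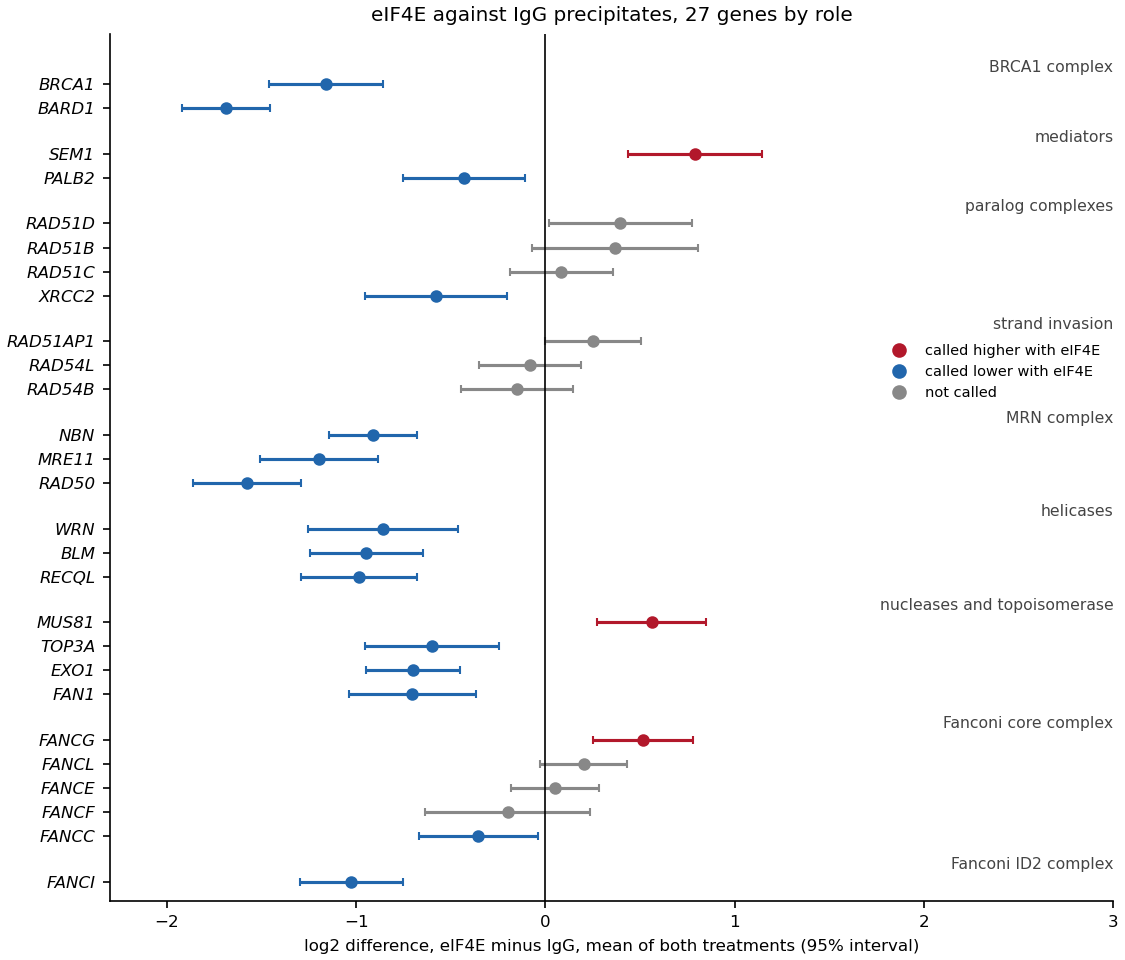
Difference of eIF4E minus IgG (log2, mean of both treatments) of the 27 tested members, grouped by role, with unadjusted 95% intervals and colours for the call by adjusted p. BARD1 and RAD50 lie lowest at -1.69 and -1.57, and SEM1 highest at 0.79.

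The BRCA1 and BARD1 pair were both lower with eIF4E. BARD1 had the lowest value of all members, -1.69 ± 0.11 (SE, 6 arrays a side, adjusted p = 1.66e-09), with a signal of 258 to 399 on eIF4E arrays and 925 to 1293 on IgG arrays. Its difference was -1.68 in irradiated cells and -1.69 in untreated cells. BRCA1 stood at -1.16 ± 0.14 (SE, adjusted p = 1.74e-06), with 182 to 303 on eIF4E arrays and 386 to 1023 on IgG arrays. The eIF4E arrays of either gene lay below all its IgG arrays. By group BRCA1 averaged 265 ± 36.6 and 227 ± 38.9 on irradiated and untreated eIF4E arrays, and 769 ± 224 and 423 ± 37.9 on irradiated and untreated IgG arrays (SD, n = 3). BRIP1, the helicase that binds BRCA1, ranged over 24 to 35.7 with eIF4E and 7.29 to 68.8 with IgG, above the genes taken as not expressed on 1 of 12 arrays.

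All 3 subunits of the MRE11 complex were called lower with eIF4E, as were 38.2% of all genes. RAD50, which tethers the ends, had 159, 149 and 214 on the irradiated and 152, 194 and 215 on the untreated eIF4E arrays, and 521, 551 and 685 on the irradiated and 635, 487 and 523 on the untreated IgG arrays. Each IgG array was higher than each eIF4E array, and RAD50 stood at -1.57 ± 0.13 (SE, adjusted p = 2.93e-08). MRE11, the nuclease, had 212, 308 and 330.1 on the irradiated and 329, 338 and 266 on the untreated eIF4E arrays, and 944, 540.1 and 723 on the irradiated and 646, 755 and 614 on the untreated IgG arrays. Irradiated IgG replicate 1 was the highest, the antibodies did not overlap, and MRE11 stood at -1.19 ± 0.15 (SE, adjusted p = 1.79e-06). NBN stood at -0.91 ± 0.11 (SE, adjusted p = 1.44e-06), with 862 to 1120.1 on eIF4E arrays and 1457 to 2484 on IgG arrays.

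**Figure D3:**
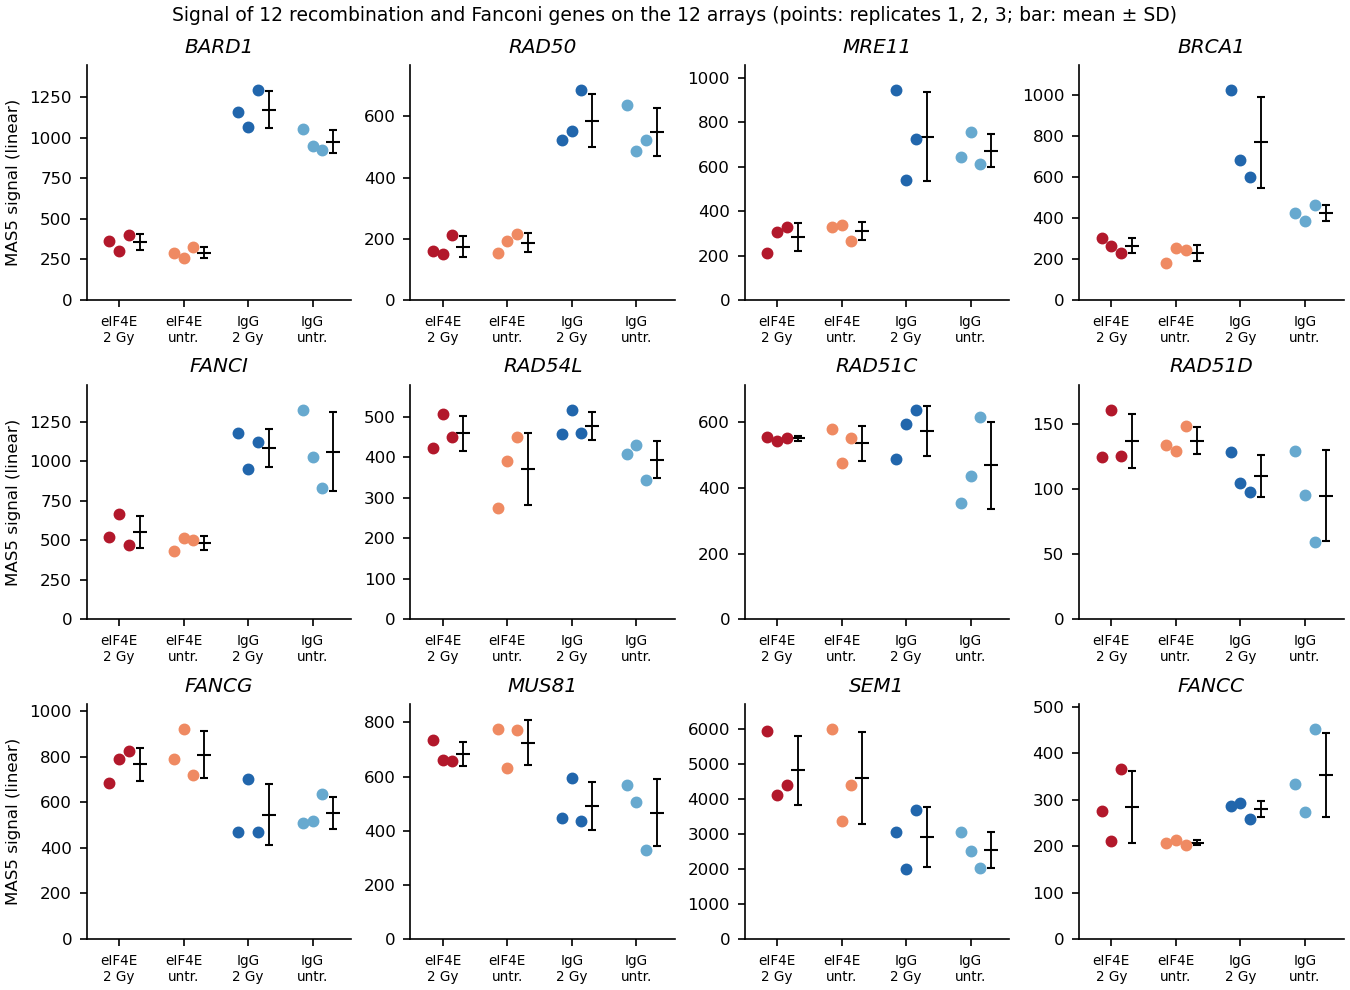
Signal (linear scale, from 0) of 12 members on every array, with the groups from left to right irradiated eIF4E, untreated eIF4E, irradiated IgG and untreated IgG, points for replicates 1, 2 and 3, and bars for the mean ± SD. BARD1, RAD50, MRE11, BRCA1 and FANCI lie higher on all IgG arrays, and the irradiated and untreated eIF4E points overlap in all 12 genes.

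Among the mediators, which prepare the single strand for invasion, the measured members went opposite ways. SEM1, also called DSS1, is a small acidic partner of BRCA2 and a subunit of the proteasome. It had 5956, 4124 and 4412 on the irradiated and 6001, 3385 and 4414 on the untreated eIF4E arrays, and 3061, 1995 and 3685 on the irradiated and 3068, 2533 and 2046 on the untreated IgG arrays. Untreated eIF4E replicate 2 lay below irradiated IgG replicate 3, the only overlap, and SEM1 stood at 0.79 ± 0.17 (SE, adjusted p = 4.61e-04), the highest member. PALB2 was lower at -0.43 ± 0.15 (SE, adjusted p = 0.0186), with overlapping antibodies. Its call was lost without irradiated eIF4E replicate 1 (adjusted p = 0.0547) or irradiated IgG replicate 3 (adjusted p = 0.0546). RAD52, which anneals single strands, ranged over 36.9 to 58.1 with eIF4E and 22.4 to 74.4 with IgG and was above the genes taken as not expressed on 2 of 12 arrays.

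Of 4 tested subunits of the paralog complexes (RAD51B, RAD51C, RAD51D and XRCC2), 0 were called higher and 1, XRCC2, was called lower by limma, and 3 others were not called. Among all genes 32.5% were called higher and 38.2% lower. XRCC2 stood at -0.58 ± 0.18 (SE, adjusted p = 0.00768), with 63.3 to 92.4 on eIF4E arrays and 104 to 178 on IgG arrays. Its probe set is of a type that may detect other transcripts, so its value is uncertain. RAD51D had 125, 161 and 126 on the irradiated and 134, 129 and 149 on the untreated eIF4E arrays, and 129, 105 and 97.6 on the irradiated and 129.6, 95.6 and 59.6 on the untreated IgG arrays. Replicate 1 of both IgG groups lay among the eIF4E arrays, the other IgG arrays lay below them, and RAD51D stood at 0.40 ± 0.18 (SE, adjusted p = 0.0557). RAD51D was called higher without replicate 1 of irradiated IgG (0.45, adjusted p = 0.0414), of untreated IgG (0.51, adjusted p = 0.0138) or of every group (0.59, adjusted p = 0.0191).

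RAD51B, mostly not above background with IgG, stood at 0.37 ± 0.21 (SE, adjusted p = 0.122) and RAD51C at 0.08 ± 0.13 (SE, adjusted p = 0.572). RAD51C had 556, 543 and 552 on the irradiated and 578, 477 and 551 on the untreated eIF4E arrays, all within the range of the IgG arrays. XRCC3, the partner of RAD51C, was above the genes taken as not expressed on 0 of 12 arrays, with 2.14 to 35 on eIF4E arrays and 2.8 to 32.8 on IgG arrays. The genes of strand invasion were not called either. RAD51AP1 stood at 0.25 ± 0.12 (SE, adjusted p = 0.0715), RAD54L at -0.08 and RAD54B at -0.15. Without untreated IgG replicate 3, RAD51AP1 was called higher (0.33, adjusted p = 0.0213), and without untreated IgG replicate 1 it stood at 0.14. Their signals on eIF4E and IgG arrays were 1539 to 1847 and 1011 to 1714 for RAD51AP1, 275 to 508 and 344 to 518 for RAD54L, and 288 to 493 and 322 to 569.8 for RAD54B.

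The helicases RECQL, BLM and WRN, of the RecQ family, were lower with eIF4E, and the antibodies overlapped in none of the 3. Among all genes 38.2% were called lower, and 26.7% were lower without overlap. RECQL, which restarts stalled forks, stood at -0.98 ± 0.14 (SE, adjusted p = 1.33e-05), with 355 to 456 on eIF4E arrays and 660.2 to 1262 on IgG arrays. BLM stood at -0.95 ± 0.14 (SE, adjusted p = 1.45e-05), with 177 to 277 with eIF4E and 343 to 783 with IgG. WRN, mutated in Werner syndrome, stood at -0.86 ± 0.19 (SE, adjusted p = 6.24e-04), with 46.5 to 114 with eIF4E and 116 to 175 with IgG.

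The nucleases split. MUS81, which cuts branched molecules, was higher, while EXO1, which trims ends over long distances, FAN1, which unhooks crosslinks, and TOP3A, the topoisomerase that works with BLM, were lower. MUS81 had 735, 660.0 and 658 on the irradiated and 774, 630.0 and 770.5 on the untreated eIF4E arrays, and 447, 595 and 435 on the irradiated and 567, 505 and 327 on the untreated IgG arrays. All eIF4E arrays lay above all IgG arrays, the 1 higher member without overlap, at 0.56 ± 0.14 (SE, adjusted p = 0.00153). EXO1 stood at -0.70 ± 0.12 (307 to 456 with eIF4E, 517 to 611 with IgG), FAN1 at -0.70 ± 0.16 (98.2 to 164 with eIF4E, 170.4 to 287 with IgG) and TOP3A at -0.60 ± 0.17 (87 to 154 with eIF4E, 155 to 223 with IgG), each with its SE. The adjusted p was 4.75e-05 for EXO1, 8.29e-04 for FAN1 and 0.00432 for TOP3A.

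Of 5 tested core complex genes, 1 was higher, 1 lower and 3 were not called, where 32.5% of all genes were called higher and 38.2% lower. FANCG, also known as XRCC9, had 684, 789.6 and 826 on the irradiated and 790.2, 920.3 and 718 on the untreated eIF4E arrays, and 468, 701 and 471 on the irradiated and 509.9, 519 and 635 on the untreated IgG arrays. Irradiated IgG replicate 2 lay just above irradiated eIF4E replicate 1, the only overlap, at 0.52 ± 0.12 (SE, adjusted p = 0.00143). FANCC was lower at -0.35 ± 0.15 (SE, adjusted p = 0.0422), with overlapping antibodies. FANCC was no longer called in 9 of the 12 fits that left out an array: irradiated eIF4E replicates 1 and 2, every untreated eIF4E replicate, irradiated IgG replicates 1 and 2 and untreated IgG replicates 1 and 3 (adjusted p from 0.0521 to 0.128 in these).

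FANCL, the ubiquitin ligase of the core complex, stood at 0.20, with 617 to 796 on eIF4E arrays and 529 to 671 on IgG arrays. FANCE stood at 0.05, and FANCF at -0.20, with 49.3 to 80.4 on eIF4E arrays and 47.3 to 107 on IgG arrays. These were not called (adjusted p = 0.105, 0.705 and 0.399). FANCI, the target of that ligase, was lower. It had 519, 664 and 469 on the irradiated and 434, 517 and 502 on the untreated eIF4E arrays, and 1181, 951 and 1119.7 on the irradiated and 1325, 1024 and 833 on the untreated IgG arrays. The antibodies did not overlap, and FANCI stood at -1.02 ± 0.13 (SE, adjusted p = 2.14e-06).

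Of the 4 genes with a pyrimidine run shown above, BRCA1 was lower with eIF4E, FANCG was higher, and RAD51D (0.40) and FANCE (0.05) were not called. The 2 other higher genes, SEM1 and MUS81, had no such run, nor had BARD1, RAD50 or MRE11. BRCA1 and RAD51D also have an annotated start 2 without such a run. Which of the annotated starts these cells use was not measured.

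Within irradiated cells 15 members were called, 3 higher and 12 lower (55.6%, against 59.5% of all genes, 27.2% higher and 32.3% lower), with a median of -0.27 against -0.06 for all genes. Within untreated cells 17 were called, 3 higher and 14 lower (63.0%, against 58.9% of all genes, 27.2% higher and 31.7% lower), with a median of -0.60 against -0.08. Arrays of the antibodies were apart in 16 members in irradiated cells, 3 higher and 13 lower (59.3%, against 62.4% of all genes, 29% higher and 33.4% lower), and in 19 in untreated cells, 4 higher and 15 lower (70.4%, against 66.7% of all genes, 30.6% higher and 36.1% lower). The 3 higher genes were SEM1, MUS81 and FANCG in either treatment. PALB2, FANCC and XRCC2 were not called in irradiated cells (-0.26, -0.01 and -0.42) and were called lower in untreated cells (-0.60, -0.70 and -0.73). TOP3A was called in irradiated cells (-0.66) and not in untreated cells (-0.54, adjusted p = 0.0616). For none of these 4 genes did the test of the difference between treatments pass (adjusted p = 0.999 for each). Without untreated IgG replicate 1 the members higher in untreated cells numbered 5. The members higher in irradiated cells numbered 1 after the omission of any irradiated eIF4E replicate, or of irradiated IgG replicate 1 or 3.

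Probe sets of a gene were compared where several lay above the filter, in 7 members, with p adjusted over all probe sets. All probe sets were lower with eIF4E in 4 members. RAD50 stood at -1.57 and -1.09, FANCI at -1.25 and -1.02, TOP3A at -1.26 and -0.60, and the 4 of RECQL from -1.27 to -0.49. The RECQL probe set at -1.27 and another of RECQL are, like that of XRCC2, of a type that may detect other transcripts. In 3 members some passed and some did not, and 0 members had probe sets called in opposite directions. BRCA1 stood at -1.16 by its brighter probe set, used throughout, and at -0.12 ± 0.32 (SE, adjusted p = 0.742) by a dimmer one of that same type. That one had 53.7, 61.8 and 58.8 on the irradiated and 78.3, 77.2 and 43.9 on the untreated eIF4E arrays, and 129, 74.6 and 142 on the irradiated and 84.5, 5.37 and 64.7 on the untreated IgG arrays. Its values lay near those of genes not expressed, and its irradiation effect in IgG precipitates was 1.19 ± 0.45 (SE, adjusted p = 0.573), the same direction as the brighter one.

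NBN stood at -1.18, -0.91 and -0.64 by 3 probe sets and at -0.21 ± 0.19 (SE, adjusted p = 0.338) by another. The NBN probe set at -1.18 is of the type that may detect other transcripts. RAD51C differed more: its brighter probe set stood at 0.08 and was not called, and the other at 0.67 ± 0.12 (SE, adjusted p = 1.46e-04). By that other probe set RAD51C had 624, 450.4 and 451 on the irradiated and 530.1, 499 and 675 on the untreated eIF4E arrays, and 328, 308 and 340.0 on the irradiated and 333, 375 and 296 on the untreated IgG arrays. All of those eIF4E arrays were above all IgG arrays, so whether RAD51C was higher depends on the probe set.

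**Figure D4:**
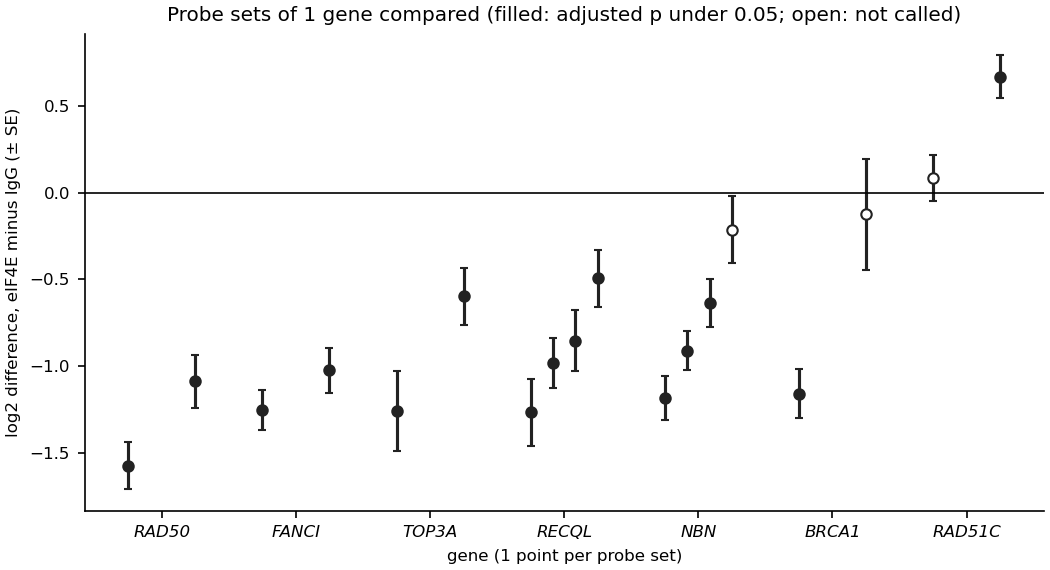
Difference of eIF4E minus IgG (log2, mean of both treatments, ± SE) of each probe set above the filter in the 7 members that have several, filled where called. BRCA1, NBN and RAD51C have both called and uncalled probe sets, and no gene has called probe sets on both sides of 0.

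The length of the gene in the genome, introns included, was set beside the antibody difference. Members called lower had a median span of 73.3 kb (n = 15), those called higher 7.98 kb (n = 3) and those not called 30.8 kb (n = 9). SEM1 at 228 kb was a long gene among the higher ones, and RAD51B at 863 kb was the longest of all and not called. Span is that of the whole annotated gene. SEM1 has annotated starts far apart, at chr7:96709827-96709846 and chr7:96503504-96503523, so the transcript measured may span less. Spearman's rho between span and difference was -0.32 over the 27 members and -0.47 over 7177 tested genes with a span. It is across genes, which share the same 12 arrays and are not independent, and is given as a description.

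**Figure D5:**
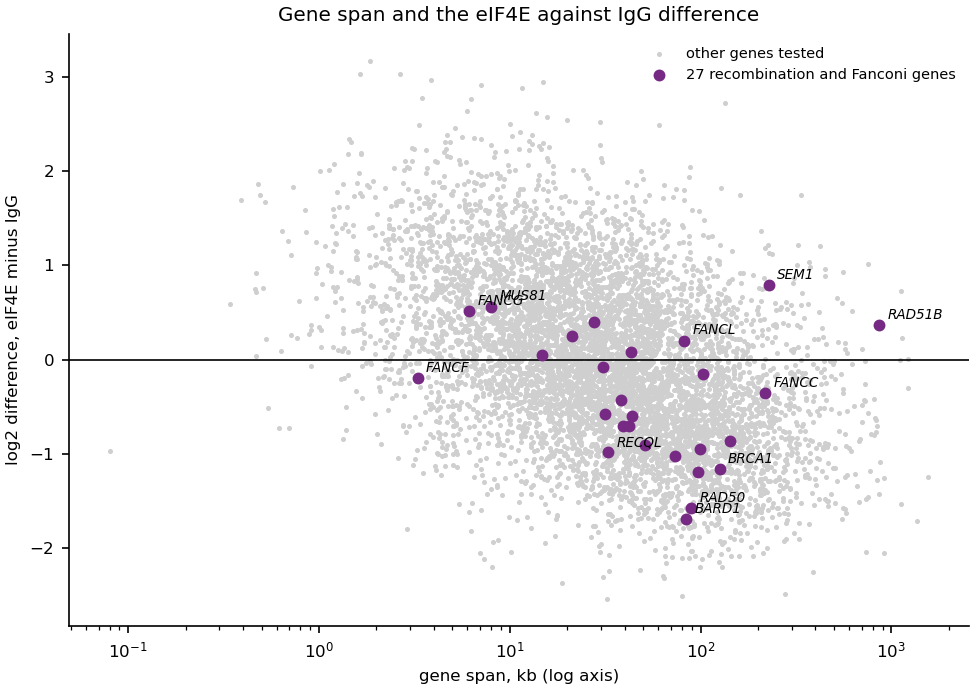
Gene span (kb, log axis) against the eIF4E minus IgG difference (log2, mean of both treatments), with the 27 members over the other tested genes in grey. Longer genes lie lower over all genes (rho -0.47), while SEM1 (228 kb) was called higher with eIF4E and RAD51B (863 kb) was not called.

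Other genes of these pathways were read from a list of 53, of which 29 had a probe set and 26 were tested. With eIF4E 9 were higher and 14 lower than with IgG (88.5% called, against 70.7% of all genes), with a median of -0.39. The highest were CENPX, a DNA-binding partner of the core complex, at 2.09, and RPA3, the small subunit of the single-strand binding protein RPA, at 1.80. The lowest were ATR, the kinase of stalled forks, at -1.96, and USP1, which removes ubiquitin from FANCD2, at -0.89.

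After irradiation limma called 0 of these 26 with either antibody and 0 for the difference, and 0, 2 and 0 had an unadjusted p under 0.05. In eIF4E precipitates the ends were the helicase RTEL1 (0.28) and the break-sensing kinase ATM (0.26), and the polymerase subunit REV3L (-0.32) and RPA3 (-0.17). In IgG precipitates they were ATR (0.67) and ATM (0.53), and CENPX (-0.43) and the helicase RECQL4 (-0.36). For the difference they were RECQL4 (0.58) and CENPX (0.39), and REV3L (-0.57) and ATR (-0.44).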

How the data were processed

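Each probe set has 1 deposited value per array, a linear intensity that the authors made with MAS5 (version not given in the sources used here), per the submitters' processing notes. On all 12 arrays the trimmed mean (without 2% at each end) was 500.2, and 0 pairs of arrays were identical. The table holds 22277 probe sets, of which 62 are controls. The platform annotation gave 19064 of them 1 gene symbol, several to 1043 and none to 2108, and 19052 symbols were brought up to date by gene identifier with the RefSeq table of GRCh38.p14, the source of gene spans too. The probe set with the highest mean stood for its gene, an _x_at one only in the absence of another. Genes under the 40th percentile of mean log2 signal (a signal of 57.4) were not tested.

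The model had 4 group means over all 12 arrays, on log2(signal + 16), which understates changes of dim genes. It was fitted in limma 3.58.1 (R 4.3.3) by lmFit and by eBayes with a variance trend, and p was adjusted by Benjamini-Hochberg over 7178 genes. Intervals are unadjusted. Plots are from matplotlib 3.10.9. The steps were first tested on simulated data. Every member with a probe set is named. Values on every array are given for the 5 members with the smallest p in each irradiation comparison and the 5 at either end of the mean antibody comparison, and of the other pathway genes those at either end of a comparison are named. After values were seen, array values were added for RAD51AP1, FANCF, XRCC2 and RAD54L in IgG precipitates, whose groups do not overlap. Those of further probe sets of BRCA1, RAD51C, FANCI, NBN, RAD50 and RECQL were added likewise. The members and lists were chosen with earlier results of these data known.

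As a check of pairing, deviations from the group mean were correlated between same-numbered irradiated and untreated eIF4E arrays. The values were 0.374, 0.208 and 0.181 for replicates 1, 2 and 3, so these arrays were taken as possibly paired, although the labels name no shared culture or day. Arrays of unlike number were not compared, so the values cannot establish pairing. The main SEs, p and intervals take no account of pairing. Replicate 1 also correlated between antibodies, at 0.277 in irradiated and 0.292 in untreated cells, so the pairing is uncertain. All other pairs of groups had at least 1 number under 0.1. The alternatives changed the pseudocount (1 or 64), the filter (none or the 60th percentile), the scaling (quantile normalization or median centring), the variance trend, array weights, the replicate block, the arrays in the fit (only the groups compared, each array omitted, replicate 1 of every group omitted), the probe sets (their mean, or each alone) and a minimum size (1.5-fold).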

Additional observations from a re-analysis of the deposited data

How the results depend on the processing

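Members called after irradiation numbered 0 with either antibody and for the difference under every alternative run. Over all genes, array quality weights called 2 in eIF4E precipitates. In IgG precipitates 1 was called without a variance trend, 1 with probe set means, and 0 to 1 when 1 array was omitted, 1 being without untreated IgG replicate 1. With the replicate block, 0 members and 0 genes were called in eIF4E precipitates, and the block gave 3 higher and 12 lower members in irradiated cells, 3 and 15 in untreated cells and 3 and 15 over both; it changed no other count by over 1.5 times. Members lower with eIF4E stayed within 1.5 times of their count in all alternatives (9 to 12 in irradiated cells, 10 to 15 in untreated cells, 11 to 15 over both). Members higher with eIF4E, few in number, moved more. In irradiated cells there was 1 with a 1.5-fold minimum, 1 without replicate 1 of every group and 1 to 3 when 1 array was omitted. In untreated cells there were 5 with quantile normalization, 5 with median centring, 5 with array quality weights and 2 to 5 when 1 array was omitted. Over both there were 6 with quantile normalization, 6 with median centring, 5 without a variance trend, 5 with array quality weights and 1 with a 1.5-fold minimum, and 3 to 4 when 1 array was omitted. Quantile normalization added RAD51D (0.49, adjusted p = 0.0222), RAD51B (0.50, adjusted p = 0.0454) and FANCL (0.28, adjusted p = 0.0268), and centring added RAD51AP1 (0.35, adjusted p = 0.0187), RAD51D and FANCL. FANCC lost its call in 15 of 25 alternatives and PALB2 in 5, both with quantile normalization (-0.22 and -0.29), centring (-0.25 and -0.33) and the 1.5-fold minimum; the last also ended the calls of FANCG, MUS81 and XRCC2 by its construction. As probe set means BRCA1 stood at -0.64, MRE11 at -0.61 and RAD51C at 0.38 (adjusted p = 0.00412). The further MRE11 probe set in that mean was dim, with 6.33 to 29.7 on eIF4E arrays and 1.69 to 37.3 on IgG arrays. RAD51C, not called, stood at -0.0027 to 0.19 when 1 array was omitted, the lowest without untreated IgG replicate 1, and at -0.089 without replicate 1 of every group. The causes of these changes were not tested. Fits of only the groups compared were not made for the mean or the difference, which use all 4 groups.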
